A study of Bombyx mori with 8 samples.

Results

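Regions of silkworm (*Bombyx mori*) chromatin that carried a G-quadruplex peak in both fat body libraries and in exactly one of 2 brain libraries are described here. They were chosen from the peak calls themselves: the 4 peak lists were merged wherever peaks overlapped by at least 1 bp, and a merged region was kept when both fat body lists and only one brain list had called it. Of 41892 merged regions, 1335 met the rule (3.19%). Brain replicate 1 was the calling brain library in 824 of them (1.97% of all merged regions) and brain replicate 2 in 511 (1.22%). Those calls define the regions, so the counts are a description and carry no test.

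G-quadruplexes are stacked structures that form when runs of guanines in one DNA strand fold onto each other. They are known from promoters and other open chromatin of many animals, and an antibody against the folded structure can mark them in nuclei. In CUT&Tag, the antibody tethers a transposase that cuts and tags the DNA around the bound site, so a peak shows where tagged fragments pile up. The insect fat body stores lipid and glycogen and makes many haemolymph proteins, tasks that vertebrates divide between liver and adipose tissue, and the brain is the centre of neural and neuroendocrine control.

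All 4 libraries were labelled wild type, strain P50, stage code L5D3 and BG4, a single-chain antibody fragment that binds G-quadruplexes, with 2 replicates of brain and 2 of fat body. The labels do not say whether the replicates came from separate animals or whether animals were pooled, and the spread between replicates can therefore be technical. Of the 8 samples described in the labels, 4 were not analysed here: an IgG library, a brain library of stage code P0 and a pair from BmN, a cell line derived from silkworm ovary. No gene annotation of the assembly used by the lists was to hand, so regions are given by coordinates and the tissue labels were not checked against marker genes.

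The lists were unequal. Brain replicates 1 and 2 held 6759 and 33925 peaks and fat body replicates 1 and 2 held 8556 and 5894, each down to a q of 1e-05. At the median summit 49 and 66 fragments were piled up in the brain lists, beside 58 and 43 in the fat body lists. A region missing from a list had no peak past that threshold, which does not show that the signal was absent. The text inside the peak names differs from the labels: every fat body peak is named with 1H6, another antibody against G-quadruplexes, BG4 appears in the names of brain replicate 1, and brain replicate 2 has no antibody in its names and alone records duplicate removal. The stage in the names is not L5D3 either: 3 lists have spellings of 5L4D, and fat body replicate 2 has W in its place. Antibody, preparation, stage and tissue cannot be told apart in any comparison across the lists below.

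The first question was how the single brain calls split among the regions that fat body called reproducibly. Among the 4142 regions of both fat body lists, brain replicate 1 alone called 824 (19.9%, 95% Wilson interval 18.7% to 21.1%) and brain replicate 2 alone called 511 (12.3%, 11.4% to 13.4%). Exactly one brain list had thus called 32.2%. Both brain lists called 1541 (37.2%) and neither called 1266 (30.6%). In all, brain replicate 1 reached 57.1% of these regions and brain replicate 2 reached 49.5%, although the second list is the longer. When all lists were cut to the same length by −log10 q, the counts became 1785 and 24, and without fat body replicate 2 they were 1050 and 1138. The intervals cover counting error only, and regions of one library are not independent replicates.

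Regions that only one fat body list called showed another split. Where fat body replicate 1 alone had called (4376 regions), brain replicate 1 alone was present at 5.23% and brain replicate 2 alone at 14.5%. Where fat body replicate 2 alone had called (1725 regions), the shares were 12.9% and 13.4%. Sole calls of brain replicate 1 were thus more frequent at regions of both fat body lists (19.9%) than at those of either list alone, whereas sole calls of brain replicate 2 stayed between 12.3% and 14.5% in all 3 settings.

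Seen from the brain lists, the members were a large part of one and a small part of the other. Brain replicate 1 had 2664 regions that brain replicate 2 did not call, and 824 of them (30.9%) were in both fat body lists. Brain replicate 2 had 29631 regions that brain replicate 1 did not call, and 511 of them (1.72%) were in both fat body lists. Of the 4088 regions called in both brain lists, 37.7% were in both fat body lists. The brain replicate 1 regions that lacked the other brain call were therefore close in this share to the regions with it, and those of brain replicate 2 were not. The lists set this contrast in part, since only 4142 regions were in both fat body lists. The 29631 regions of brain replicate 2 were far more, so their share could not have come near 37.7%.

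The shares were then followed along the range of peak strength. The regions of each brain list were ranked by the authors' fold enrichment, which sets summit height against local background as the peak caller estimated it, and split into 10 bins of near-equal size. In brain replicate 1, the share of regions without the other brain call that were in both fat body lists was 17.1% in the lowest bin (68 of 397), and in the highest it was 66 of 132 (Wilson interval 41.6% to 58.4%). Regions of brain replicate 1 with the other brain call went from 21.1% in the lowest bin to 57.5% in the highest. In brain replicate 2, regions without the other brain call reached at most 3.19%, in bin 5 (92 of 2884), and were at 0.368% in the highest (12 of 3259). Over all bins together, these shares are held low by the number of fat body regions, as above. Regions of brain replicate 2 with the other brain call were between 22.3% and 40.4% in every bin. The highest bin of brain replicate 2 began at a fold of 11.9, and its regions without the other call had a median width of 839 bp, against 295 bp in the lowest bin.

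**Figure D1:**
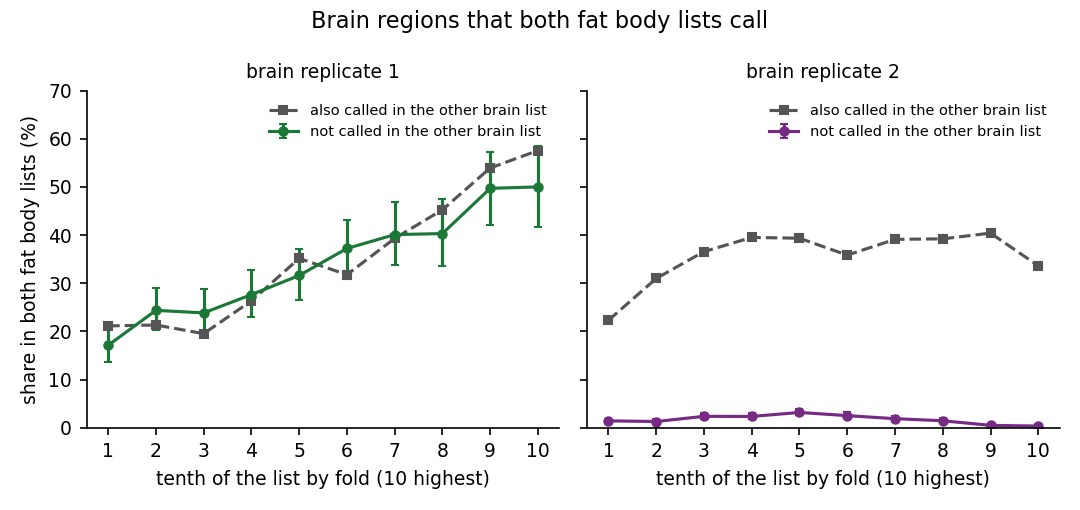
Share of brain regions that both fat body lists call (y axis, percent) by bin of the brain list ranked by fold (x axis, 10 highest), for brain replicate 1 (left) and 2 (right). Circles are regions not called in the other brain list, with 95% Wilson intervals, and squares are regions also called there. The 2 lines run together on the left, and on the right the circles stay at or below 3.19% while the squares lie between 22.3% and 40.4%. Over all bins together, the number of fat body regions holds the circles on the right low.

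The strongest members with a brain replicate 1 call were well above the floor of each of the 3 lists. The region ranked first by its smallest fold lay on sequence 9 at 761933 to 762484 (all coordinates are 1-based, in the numbered sequences of the assembly the lists use). Its folds were 13.5 and 15.8 in fat body replicates 1 and 2 and 14.8 in brain replicate 1, over summit pileups of 131, 141 and 208 fragments. The nearest peak of brain replicate 2 began 1166 bp beyond its end. Sequence 25 at 9239340 to 9240050 followed, with folds of 10.8 and 12.97 in fat body and 11.6 in brain, and pileups of 155, 160 and 248 fragments. In both regions the brain value lay between the fat body values by fold and above them by pileup.

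In the next members of this kind the smallest of the 3 folds was near 10. Sequence 5 at 17663897 to 17664770 gave 9.87 and 13.5 in fat body and 11.7 in brain, and 714 bp covered by all 3 lists. Sequence 17 at 5090726 to 5091726 had 9.65 and 10.9 in fat body and 9.79 in brain, and its 3 peaks began at the same base. Sequence 15 at 12600337 to 12601182 gave 9.57 and 15.2 in fat body and 10.1 in brain. On these 3 regions fat body replicate 2 gave the highest fold. Sequence 23 at 20998093 to 20998536 was more uneven, with 9.55 in fat body replicate 1, 21.5 in fat body replicate 2 and 14.4 in brain replicate 1. The highest remaining brain folds of this kind were 12.2 on sequence 21 at 11867626 to 11868210, where fat body gave 4.67 and 9.33, and 11.2 on sequence 11 at 11372097 to 11372547, where fat body gave 8.96 and 10.2.

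The strongest members with a brain replicate 2 call were led by sequence 12 at 12209023 to 12209416. Its folds were 13.5 and 18.9 in fat body and 9.92 in brain, over pileups of 91, 108 and 109 fragments, and the nearest brain replicate 1 peak was 71616 bp away. On sequence 5 at 7453096 to 7453519 fat body gave 11.9 and 18.8 and brain 8.18. Fat body gave the higher folds in both. Sequence 4 at 6430970 to 6432426 gave 9.73 and 8.48 in fat body and 10.9 in brain, and sequence 25 at 6608230 to 6609240 had 8.49 and 9.95 in fat body and 9.55 in brain. The pileups of the latter were 68 and 46 fragments in fat body and 185 in brain. Near-equal folds thus stood over unequal pileups. Sequence 23 at 11322802 to 11323229 had 14.8 and 8.57 in fat body and 7.75 in brain, with pileups of 115, 36 and 30 fragments, so fat body replicate 1 stood apart from the other lists.

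The strongest brain replicate 2 calls among the members differed in how far they overlapped the fat body peaks. Sequence 3 at 5094588 to 5095661 had a brain fold of 20.5 and a pileup of 368 fragments, with fat body folds of 8.81 and 8.79. Its brain peak overlapped a fat body peak by at most 17 bp, and no base was covered by all 3 lists. On sequence 22 at 2367915 to 2368893 the brain fold was 28.7 over a pileup of 582 fragments, with 138 bp covered by all 3 lists and fat body folds of 7.56 and 11.8. On sequence 4 at 14227625 to 14229066 529 bp were covered by all 3 lists, with a brain fold of 18.8 against 2.71 and 5.10 in fat body. These 3 brain folds were far above the upper quartile of their kind, 5.84.

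Peak strength was then compared within each list, because folds of different lists do not share a scale. In fat body replicate 1, members with a brain replicate 1 call had a median fold of 5.80 (quartiles 4.81 and 7.19) and those with a brain replicate 2 call 5.88 (4.71 and 7.33). In fat body replicate 2 the medians were 7.60 (6.09 and 9.33) and 6.95 (5.74 and 8.56). Both kinds lay between regions of both brain lists, at 7.17 and 9.04 in fat body replicates 1 and 2, and regions of neither brain list, at 5.24 and 6.11. By fold this order was found in each fat body list; by pileup it was not in fat body replicate 1, where members with a brain replicate 1 call had a median of 57 fragments and regions of neither brain list 65. Averaged over the fat body lists, the fold medians were 6.70 ± 1.27 and 6.41 ± 0.759 (SD, n = 2), an SD that includes the difference in scale between the lists. The kinds had no settled order in fat body replicate 1: the log2 ratio of their medians, first kind over second, was -0.018, and it was 0.064 at a −log10 q of at least 20 and 0.22 at equal list lengths.

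By fold, members in the brain lists were near or below the median peak. Members with a brain replicate 1 call had a median fold of 5.13 in that list (quartiles 4.30 and 6.26), against 5.14 for all its peaks and 6.19 for regions of all 4 lists. Members with a brain replicate 2 call had a median fold of 4.71 (3.97 and 5.84), against 5.17 for all its peaks and 6.002 for regions of all 4 lists. Of the members, 49.8% exceeded the median fold of all peaks in brain replicate 1 and 36.6% did in brain replicate 2. Other measures placed brain replicate 1 members above the list, with a median −log10 q of 19.6 against 17.5, a pileup of 54 against 49 fragments and a width of 551 against 495 bp. Brain replicate 2 members were below the list in each, with 20.0 against 24.0, 58 against 66 fragments and 312 against 405 bp. At equal list lengths, which left 24 members of the second kind, their median brain fold was 10.6. In fat body, 68.9% and 67.5% of the kinds, in the same order, exceeded the list median in replicate 1, and 63.0% and 52.3% in replicate 2. Regions of both brain lists did so in 85.8% and 80.3% in fat body replicates 1 and 2, and regions of neither in 54.6% and 36.3%. Both kinds thus lay between these other regions of both fat body lists.

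**Figure D2:**
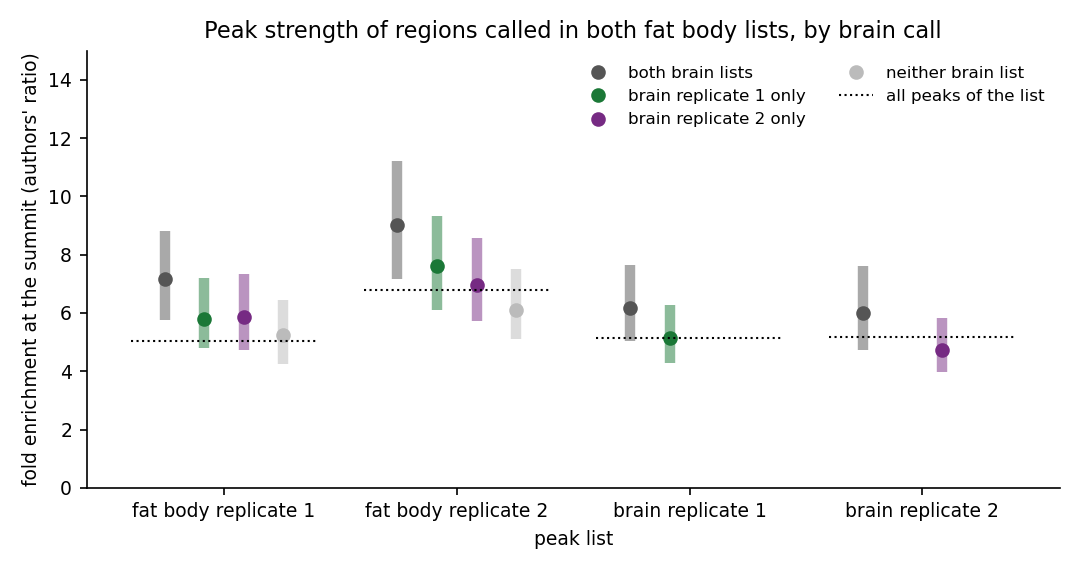
Authors' fold enrichment at the summit (y axis, a ratio) in each peak list (x axis) for regions of both fat body lists, by which brain lists called them. Points are medians, bars run from the lower to the upper quartile and dotted lines are the median of all peaks of the list; the members (green and purple) lie between regions of both brain lists and of neither in fat body, and at or under the dotted line in brain.

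Ranking the 4142 regions of both fat body lists by fold and splitting them into 5 bins showed where single brain calls were made. The share with a sole brain replicate 1 call was 18.2% in the lowest bin of fat body replicate 1, 25.4% in the second and 13.9% in the highest. By fat body replicate 2 it was 15.9% in the lowest bin, 22.9% in bin 3 and 17.6% in the highest. The share with a sole brain replicate 2 call went from 13.1% to 10.1% by fat body replicate 1 and from 13.8% to 7.48% by fat body replicate 2. By comparison, regions of both brain lists went from 18.0% to 63.7% and from 13.5% to 65.9%. Single brain calls were thus present at every level of fat body strength, and calls of both brain lists were concentrated at the strongest.

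The local background under the peaks was lower in both fat body lists for members with a brain replicate 1 call. Background and summit pileup, both in fragments, were solved for each peak from 2 deposited values, the fold and the −log10 p. The median background was 8.52 fragments in fat body replicate 1 for members with a brain replicate 1 call and 10.2 for those with a brain replicate 2 call. In fat body replicate 2 it was 4.95 and 5.69. Summit pileups were ordered alike, with medians of 57 and 70 fragments in fat body replicate 1 and 43 and 47 in fat body replicate 2. Averaged over the fat body lists, pileup medians were 50 ± 9.90 and 58.5 ± 16.3 fragments (SD, n = 2), where the SD again includes the scale of the lists. Members with a brain replicate 2 call were thus taller in fragments in both fat body lists while their fold was lower in replicate 2.

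When the 4142 regions were put in 5 bins by fat body background, the share with a sole brain replicate 1 call was lower in each successive bin. By fat body replicate 1 it went from 29.7% (246 of 829) where background was lowest to 10.4% (86 of 829) where it was highest. By fat body replicate 2 it went from 27.1% (225 of 829) to 10.6% (88 of 829). In the lowest bin the smallest and the median background were both 5.81 fragments in fat body replicate 1 and both 3.32 in replicate 2. Many regions of that bin thus shared the lowest value of their list, apart from rounding, and were not ranked among themselves by background. The share with a sole brain replicate 2 call was 11.3% and 14.2% in the lowest and highest bin of replicate 1, and 11.8% and 10.6% in those of replicate 2. The 95% Wilson intervals of the lowest and highest bin did not overlap for brain replicate 1, at 26.7% to 32.9% and 8.48% to 12.6% by fat body replicate 1, and they did for brain replicate 2. Regions of both brain lists had a higher share in the highest bin than in the lowest, from 33.8% to 38.7% by fat body replicate 1 and from 29.4% to 56.7% by replicate 2. The intervals by replicate 1, 30.6% to 37.1% and 35.5% to 42.1%, overlapped. Regions of neither brain list went from 25.2% to 36.7% by replicate 1 and from 31.6% to 22.1% by replicate 2, so the fat body lists differed there. Bins by summit pileup in fat body replicate 1 gave a like range for sole brain replicate 1 calls, from 28.8% to 8.44%. By pileup in fat body replicate 2 their share was 21.5% in the lowest bin, 26.9% in the second and 12.1% in the highest. Sole brain replicate 2 calls went from 12.7% to 12.2% by pileup in fat body replicate 1. By pileup in fat body replicate 2 they went from 13.8% to 6.996%. The Wilson intervals of these last 2 shares, 11.6% to 16.3% and 5.45% to 8.94%, did not overlap. The part of background or pileup in the calls of either brain list was not tested.

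**Figure D3:**
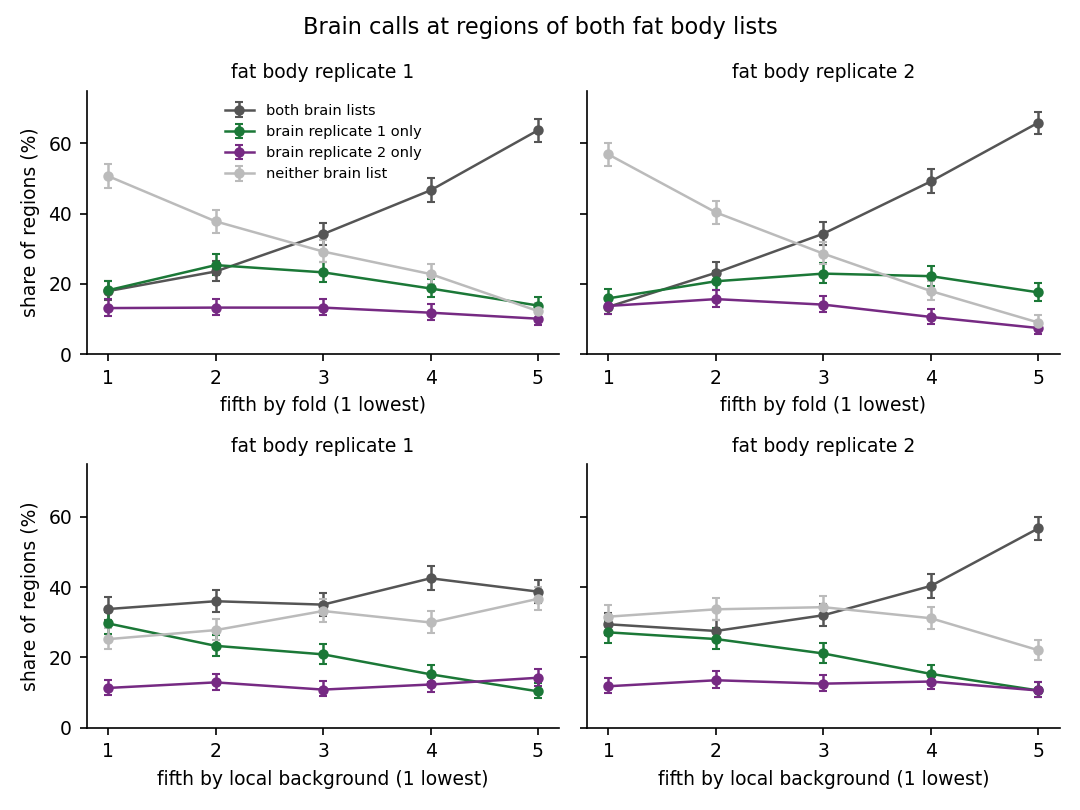
Share of the regions of both fat body lists (y axis, percent) with each combination of brain calls, by bin of fold (top) and of local background in fragments (bottom; x axes, 1 lowest) in fat body replicates 1 (left) and 2 (right), with 95% Wilson intervals. Green points, sole calls of brain replicate 1, decline from 29.7% to 10.4% and from 27.1% to 10.6% along background, and purple points, sole calls of brain replicate 2, stay between 7.48% and 15.7% in all panels. Many regions of the lowest background bin share the lowest value of their list.

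The balance of the 2 fat body lists at a region went with the brain call. Over all 4142 regions, the summit pileup in fat body replicate 2 was 0.75 times that in replicate 1 at the median. The ratio was 0.796 for members with a brain replicate 1 call (log2 median of -0.33, quartiles -0.66 and 0.00) and 0.679 for those with a brain replicate 2 call (log2 median of -0.56, quartiles -1.06 and -0.08). Regions of both brain lists had 0.842 and regions of neither 0.624. By fold, replicate 2 was higher than replicate 1 in 84.0% of the members with a brain replicate 1 call and in 75.7% of those with a brain replicate 2 call. The same held for 84.2% of regions of both brain lists and 73.0% of regions of neither. Folds were higher in fat body replicate 2 as a whole, with a list median of 6.81 against 5.03. Members with a brain replicate 1 call thus leaned more towards fat body replicate 2 than those with a brain replicate 2 call. Each ratio comes from 1 pair of libraries and has no replicate.

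**Figure D4:**
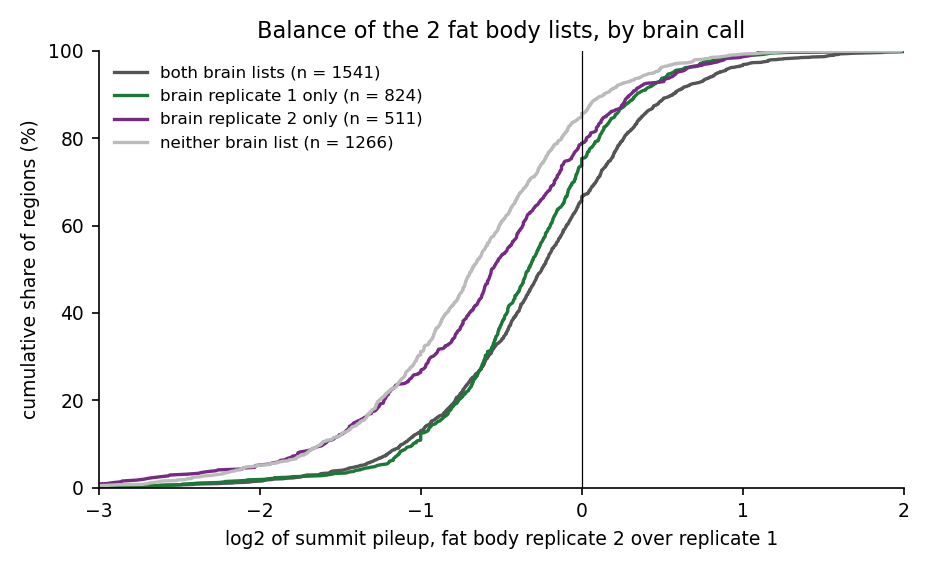
Cumulative share of regions (y axis, percent) by the log2 ratio of summit pileup in fat body replicate 2 over replicate 1 (x axis), for the 4 combinations of brain calls. The curve of brain replicate 1 members (green, median -0.33) runs near that of regions of both brain lists (median -0.25), and the curve of brain replicate 2 members (purple, median -0.56) nearer to that of regions of neither (median -0.68).

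A base common to all 3 lists was found more often when the brain call came from replicate 1. In 818 of 824 members with a brain replicate 1 call (99.3%), at least 1 base was covered by all 3 lists, with a median of 401 bp in common. With a brain replicate 2 call this held for 469 of 511 (91.8%), with a median of 251 bp. The bases in common are limited by the brain peaks, whose median widths were 551 and 312 bp, and the median share of the brain peak covered by a fat body peak was 96.5% and 100%. The brain summit lay within the bases shared by the fat body peaks in 88.2% and 75.3% of members, in the same order. At regions of all 4 lists the brain replicate 2 summit did so in 89.3% and the brain replicate 1 summit in 95.1%. There the fat body lists had a base in common with brain replicate 1 in 99.5% and with brain replicate 2 in 97.9%. The median bases in common were 471 and 339 bp, so brain replicate 2 shared fewer there too.

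Summits themselves were near each other in both kinds, but the overlap rule and the peak widths limit how far apart they can lie. The median distance from the brain replicate 1 summit was 90.5 bp to the summit of fat body replicate 1 and 84.5 bp to that of replicate 2. From the brain replicate 2 summit it was 101 and 103 bp. At regions of all 4 lists these distances were 77 and 75 bp for brain replicate 1 and 99 and 108 bp for brain replicate 2. The brain lists thus differed in this at regions that both had called as well. The fat body summits lay 65 and 63 bp from each other at the median in the 2 kinds. The merged regions had median widths of 748 and 722 bp, between the 663.5 bp of regions of neither brain list and the 862 bp of regions of all 4 lists.

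The widest members differed in how their brain call stood to the fat body peaks. On sequence 24 at 15678372 to 15680935, 2564 bp wide, pileups were 391 and 235 fragments in fat body and 55 in brain replicate 1. On sequence 20 at 3323435 to 3326729, 3295 bp wide, they were 457 and 229 in fat body and 22 in brain replicate 2. A further wide member with a brain replicate 2 call lay on the same sequence at 3284571 to 3287130, with pileups of 490, 72 and 64 fragments. On sequence 23 at 15307817 to 15309872, 2056 bp wide, no base was covered by all 3 lists, although the brain replicate 1 peak shared 934 bp with one fat body peak, and pileups were 43 and 81 fragments in fat body and 56 in brain.

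The rule has 2 edges, the overlap and the threshold of the lists. The smallest overlaps between a brain peak and a fat body peak among members were 4 bp on sequence 4 at 7141694 to 7142456 and 7 bp on sequence 7 at 6107001 to 6108886, both with brain replicate 2. With brain replicate 1 the smallest were 69 and 88 bp, both on sequence 28, at 1819727 to 1820805 and at 10265101 to 10265666. Just outside, fat body regions with no brain call had a brain replicate 2 peak 1 bp away on sequence 23 at 11213414 to 11214028 and 2 bp away on sequence 27 at 829224 to 830261. The nearest brain replicate 1 peaks to such regions were 71 bp away, on sequence 11 at 538383 to 538781, and 158 bp away, on sequence 5 at 1490292 to 1490723. At the threshold, the lowest −log10 q of a member was 5.14 in brain replicate 1, on sequence 10 at 7732749 to 7733216, and 6.16 in brain replicate 2, on sequence 15 at 4858821 to 4859143. The latter had fat body folds of 10.4 and 11.5 beside its brain replicate 2 fold of 2.55. A −log10 q under 10 in the brain list was found in 95 members with a brain replicate 1 call (11.5%) and in 48 with a brain replicate 2 call (9.39%), against 19.9% and 11.3% of all peaks of those lists.

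The distance from each member to the nearest peak of the brain list that had not called it was then measured. A longer list has more peaks near any position, and brain replicate 2 held 33925 peaks against 6759 in brain replicate 1. No share for random positions was computed, so regions of neither brain list are the only base given. A peak of brain replicate 2 lay within 5 kb of 379 of the 824 members that only brain replicate 1 had called (46.0%), at a median distance of 5750.5 bp. For the 1266 regions of neither brain list it lay within 5 kb of 53.8%, at a median of 4421.5 bp. A peak of brain replicate 1 lay within 5 kb of 77 of the 511 members that only brain replicate 2 had called (15.1%), at a median of 17781 bp. For regions of neither brain list the share was 16.3%, at a median of 19106 bp. By the 5 kb shares, members were no nearer to the missing brain list than fat body regions without any brain call. The shares depend on the lists: they were 28.5% and 6.72% at a −log10 q of at least 20. At equal list lengths they were 7.79% and 20.8%, in the reverse order, but only 24 members of the second kind were left.

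At 1 kb and in peak density the kinds differed in this respect. Within 1 kb, the missing list had a peak at 9.83% of members of the first kind and 3.33% of the second, where regions of neither brain list had 13.1% and 2.84%. Within 50 kb on each side, members with a brain replicate 1 call had a mean of 6.35 peaks of brain replicate 2, and regions of neither brain list 6.94. The first kind was thus below regions of neither brain list in both measures, and the second slightly above, with a mean of 1.95 peaks of brain replicate 1 against 1.89. Members with a brain replicate 2 call had a mean of 7.41 further peaks of brain replicate 2, and members with a brain replicate 1 call had 2.21 further peaks of brain replicate 1. Fat body density hardly differed, with 3.47 and 3.64 further peaks of fat body replicate 1 and 2.15 and 2.33 of replicate 2 around the 2 kinds.

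Single members ranged from nearly touching the missing list to far from it. On sequence 12 at 11656255 to 11657308 a brain replicate 2 peak lay 20 bp from a member that brain replicate 1 had called, and on sequence 16 at 11961441 to 11962000 one lay 33 bp away. The closest brain replicate 1 peaks to members of the other kind were 387 bp away, on sequence 23 at 7159647 to 7160028, and 422 bp away, on sequence 18 at 8366113 to 8366970. The farthest members of the first kind were 55680 bp from brain replicate 2, on sequence 13 at 8889704 to 8890540, and 54943 bp, on sequence 6 at 6669319 to 6670466. Those of the second kind were 313158 bp from brain replicate 1, on sequence 4 at 18572 to 20316, and 252134 bp, on sequence 20 at 10196624 to 10197800. The member near the start of sequence 4 had a brain replicate 2 fold of 14.4 beside 11.2 and 6.95 in fat body.

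Members were found on each of the 28 long sequences. Sequence 15 held the most with a brain replicate 1 call, 55, and sequence 5 the most with a brain replicate 2 call, 31. As a share of the regions of both fat body lists on a sequence, sole brain replicate 1 calls ranged from 9.88% on sequence 27 to 27.4% on sequence 24 (43 of 157). Sole brain replicate 2 calls ranged from 7.64% on sequence 24 (12 of 157) to 15.9% on sequence 28 (10 of 63). Brain replicate 1 calls outnumbered brain replicate 2 calls on each sequence except 3, with 20 and 24, and 27, with 8 and 8. Sequence 24 thus had the highest share of one kind and the lowest of the other. These sequences were singled out after their values were seen, and no test was made between sequences.

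**Figure D5:**
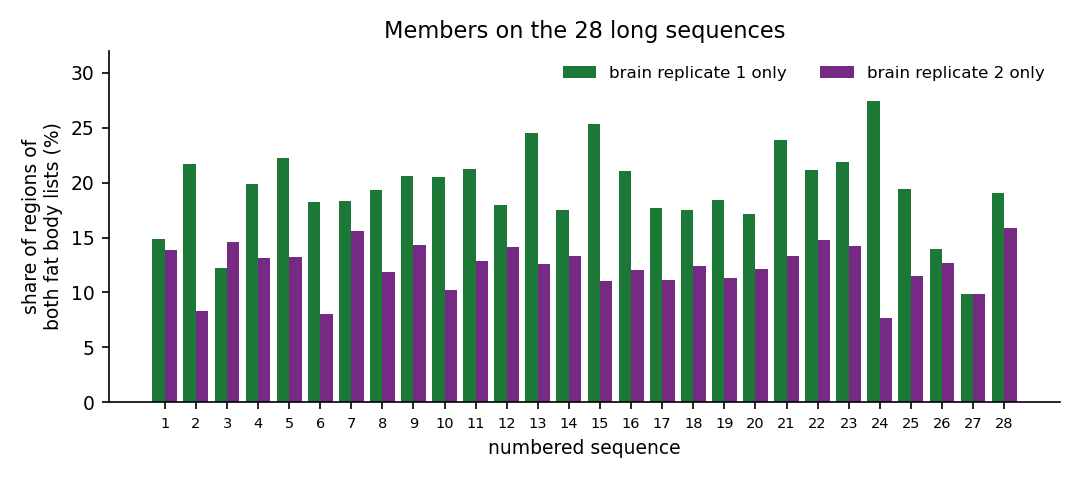
Members with a brain replicate 1 call (green) and with a brain replicate 2 call (purple) as a share of the regions of both fat body lists (y axis, percent) on each of the 28 long numbered sequences (x axis). Sequence 24 has the highest green bar, 27.4%, and the lowest purple bar, 7.64%.

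Along the sequences, the nearest member of the same kind was 109 kb away at the median for brain replicate 1 calls and 211 kb away for brain replicate 2 calls. In 100-kb windows, 682 held a member of the first kind, 455 one of the second and 114 both, which is 16.7% and 25.1% of the windows of each kind. These shares differ only because the same 114 windows are set against unequal totals. The share over all windows was not computed, so whether the kinds lie together cannot be read from them. No window held more than 4 members. The 4 members on sequence 10 at 17000001 to 17100000, and those on sequence 15 at 200001 to 300000, all had a brain replicate 1 call. On sequence 11 at 11400001 to 11500000, 3 of 4 had a brain replicate 2 call. Within 500 kb of the first base or of the last called peak of a sequence lay 51 of 822 and 36 of 511 members (7.05% for the latter), beside 6.04% of regions of all 4 lists and 10.0% of regions of neither brain list. On short sequences there were 2 members, both with a brain replicate 1 call: sequence 35 at 21233 to 22517, where fat body gave folds of 13.5 and 6.72 and brain 9.73, and sequence 58 at 37887 to 38406, with 5.44 and 6.49 in fat body and 6.42 in brain.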

How the data were processed

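Peaks of G-quadruplex CUT&Tag were analysed in 4 libraries, 2 of brain and 2 of fat body, grouped by their labels. Per the submitters' processing notes, the tools were MACS2 2.1.0, deepTools 3.3.0, Bowtie2, Trim Galore and Picard; their order, settings and the genome build are not given in the sources used here. Each deposited list holds peak coordinates, a score, the fold (a ratio over local background), −log10 p and −log10 q, all values of the authors and called per library. Read depth is unknown; precision is limited by the fragments at each summit.

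Peaks were merged at 1 bp overlap in Python 3.11.15 with pandas 2.3.3 and numpy 2.4.6. In a region, each list was represented by its peak with the highest fold. Pileup and background were solved from fold, taken as (pileup + 1)/(background + 1), and −log10 p, taken as a Poisson upper tail; a whole pileup met −log10 p within 0.01 for 100% of peaks in each list. On simulated peaks, 100% of 5000 pileups were recovered, and on simulated lists all planted members were found. Shares have Wilson intervals (scipy 1.17.1).

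No p is given: membership rests on the brain calls, and each tissue has 2 libraries. Named regions were, for each kind of member, the 6 with the highest smallest fold, the next 2 by brain fold, and the 2 lowest by brain −log10 q, widest, farthest from and nearest to the other brain list, and least overlapped. The members, lists and rule were chosen with earlier results of these data known. Alternatives tried were stricter and equal-length lists, long sequences only, other overlap rules, pileup for fold and leaving out each library.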

Additional observations from a re-analysis of the deposited data

How the results depend on the processing

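No paired analysis was possible because no result comes from a test and the lists hold called peaks only. The counts of 824 members with a brain replicate 1 call and 511 with a brain replicate 2 call depended on list length and on which libraries were used. At equal list lengths they were 1785 and 24, because brain replicate 2 was cut to its top peaks by −log10 q. Those medians moved too: the brain fold to 5.82 and 10.6, the share with a peak of the other brain list within 5 kb to 7.79% and 20.8%, and the log2 ratio of fat body median folds (first kind over second) from -0.018 to 0.22 in replicate 1 and from 0.13 to 0.31 in replicate 2. Requiring −log10 q of 20 or more gave 390 and 268 members. The fat body mean of median folds was then 8.68 and 7.83, the brain median 6.53 and 5.91, the share within 5 kb 28.5% and 6.72%, and the summit distance in the first kind 70.8 bp against 87.5 bp. Merging peaks up to 500 bp apart moved the summit distance in the second kind from 102 to 133 bp. With pileup in place of fold, the log2 ratio was -0.30 in fat body replicate 1 and -0.13 in replicate 2, so in replicate 2 the kind with the higher median differs between the measures; in replicate 1 the fold ratio lies near 0 and changed sign at equal list lengths, at a −log10 q of at least 20 (0.064), on merging within 500 bp (0.017) and without fat body replicate 2. Summits within 250 bp and 50% overlap, both counted in peaks of fat body replicate 1 and not in merged regions, kept both counts within 1.5 times. So did long sequences only and, chosen after the data were seen, a common base of all 3 lists. The lowest values of these settings were 760 and 430, with summits within 250 bp.

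Without a fat body library, fewer lists have to call a region. Without a brain library the same lists have to call it, and the other brain list no longer has to lack it. The count with a brain replicate 1 call ranged from 1050 to 2365 and that with a brain replicate 2 call from 714 to 2046. The highest counts were without the other brain list and so take in regions that both brain lists called. Without fat body replicate 2 the second count was 1138. Leaving out a fat body library, chosen after the data were seen, gave brain medians of 4.95 to 5.02 in the first kind and 4.68 to 4.71 in the second, fat body medians of 5.58 to 7.18 and 5.00 to 6.50, and a log2 ratio of 0.16 in replicate 1 and 0.14 in replicate 2.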

Other observations

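Peak edges at identical bases were also counted. The rule merged peaks by their starts and ends, so it used these values, but it did not ask for identical edges. In members with a brain replicate 1 call, the brain peak had a start or an end at the same base as the fat body replicate 1 peak in 112 of 824 (13.6%) and as the fat body replicate 2 peak in 127 (15.4%). In members with a brain replicate 2 call this held for 31 of 511 (6.07%) and 30 (5.87%). The fat body peaks shared an edge with each other in 17.7% and 12.9% of members. At regions of all 4 lists, brain replicate 1 shared an edge with the fat body lists in 11.6% and 13.2%, and brain replicate 2 in 7.92% and 6.81%. Brain replicate 1 peaks thus met fat body edges more often than brain replicate 2 peaks at members and at regions of all 4 lists alike. What lies at these bases was not tested, since no genome sequence of the assembly was used here.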
